A study of Mus musculus with 12 samples.

Results

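The 36 genes described here mark T cells (19 genes), NK cells and cytotoxic lymphocytes (10 genes) and B cells (7 genes), out of 55414 genes in the deposited table. They were chosen by name, with earlier results of these data known, so shares of these genes beside those of all genes are descriptive only. Each symbol matched 1 Ensembl mouse identifier. RNA was sequenced from lung and liver collected 6 h after CLP or sham surgery from wild-type mice of the strain C57BL/6J. CLP, an abbreviation the labels leave unexplained, stands in this field for cecal ligation and puncture, which releases gut contents into the abdomen and serves as a model of sepsis. The 4 groups were CLP lung, sham lung, CLP liver and sham liver, with 3 libraries each, and the animals of all groups carried no labelled allele or agent besides the operation. The sources used here give neither age nor sex. The labels do not state whether the 3 libraries of a group stem from separate mice, so a p-value here speaks only for the spread among the libraries, which may be technical.

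T cells recognise antigen through a receptor whose CD3 chains pass the signal to the kinases Lck and Zap70, and the co-receptors CD4 and CD8 divide T cells into helper and cytotoxic lineages. NK cells lack that receptor and kill through perforin and granzymes, a machinery they share with cytotoxic T cells. B cells signal through an antibody receptor whose CD79 chains play the part of CD3. The lung holds resident and circulating members of all of these lineages, while hepatocytes supply most of the RNA of a whole liver.

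Total counts ran from 11298109 to 13590527 in CLP lung, from 11946233 to 12931365 in sham lung, from 10559895 to 13780640 in CLP liver and from 12060375 to 15854117 in sham liver. Levels are given as CPM, a gene's counts scaled to a common library total, with the scaling done within each organ. Lymphocyte transcripts were scarce: the 36 genes together took 3124 to 4548 counts per CLP lung library and 1419 to 1874 per sham lung library. In liver they took 302 to 421 counts per CLP library and 217 to 273 per sham library. CLP lung replicate 1 held the most counts of these genes of all libraries, and sham lung replicate 2 the fewest among the lung libraries.

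Across the lung, transcripts of all 3 lineages were higher after CLP, with the largest fold change in Gzmb of the cytotoxic genes. Of the 35 genes with enough counts to be tested, 24 rose and 0 fell. The test was the quasi-likelihood test of edgeR, and a call needed a p below 0.05 after Benjamini-Hochberg adjustment over all genes. The 24 comprised 14 of 19 T cell genes, 7 of 9 tested NK genes and 3 of 7 B cell genes. No gene fell at an unadjusted p under 0.05 either (0 genes), nor with DESeq2 or limma-voom (0 and 0), and both tools also called 24 higher. Over all 15441 genes tested in lung, 23.9% were called higher, 24.9% lower and 48.9% in either direction. At least a 2-fold rise was called for 19 of the 35 genes and for 9.42% of all genes tested, and at least a 4-fold rise for 7 of the 35 and for 3.61% of all genes.

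In 26 of the 35 tested genes all 3 CLP lung libraries lay above all 3 sham lung libraries, an arrangement found in 28.6% of all genes tested, and in 0 of the 35 did they all lie below, as 31.1% of all genes did. The median log2 fold change was 0.99 over the T cell genes, 1.71 over the tested NK genes and 0.93 over the B cell genes, beside -0.03 over all genes tested. Scaling by library totals moved the median of all lung genes by -0.10 and upper-quartile scaling by -0.11, and split all calls into 2977 higher and 4847 lower or 2929 higher and 4946 lower, against 3698 and 3850 with the scaling used here. Under these scalings 23 and 22 of the 35 genes rose and 0 fell. Bulk tissue cannot tell more cells of a type from more of the transcript per cell.

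**Figure D1:**
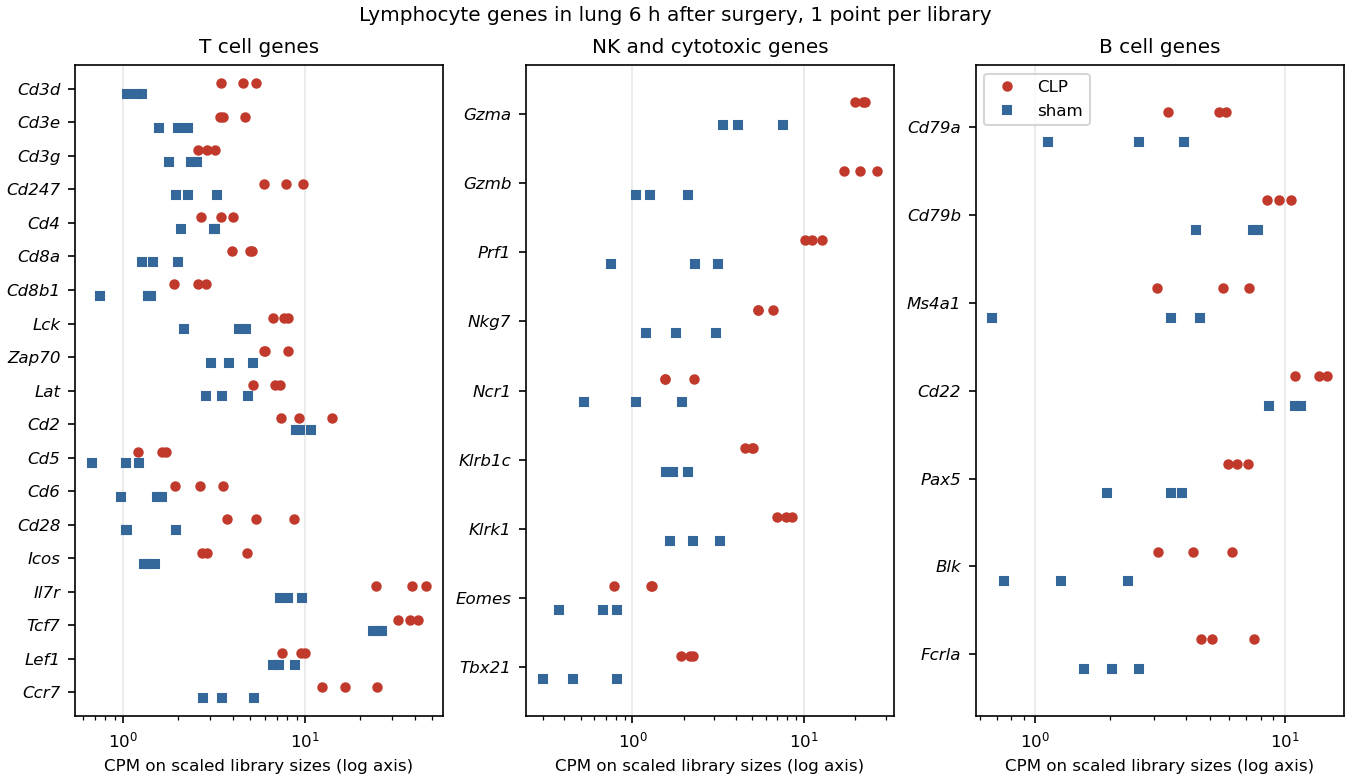
CPM of the 35 tested genes in lung (log axis, 1 point per library, CLP above sham for each gene), in 3 panels for T, NK and cytotoxic, and B cell genes. Granzyme B shows the widest gap, 17.2 to 26.8 CPM in CLP lung against 1.05 to 2.11 CPM in sham lung. The points of Cd2, Cd4, Cd5, Lef1, Ncr1, Eomes, Cd79a, Ms4a1 and Cd22 overlap.

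The summed level of the 19 T cell genes was 212, 139 and 174 CPM in CLP lung, against 89.1, 75.2 and 89.8 CPM in sham lung. For the 10 NK genes the sums were 86.3, 73.1 and 77.5 CPM in CLP lung, against 25.1, 11.98 and 14.4 CPM in sham lung. The 7 B cell genes summed to 55.5, 40.7 and 52.5 CPM in CLP lung, against 32.4, 19.1 and 35.8 CPM in sham lung. Groups did not overlap in any of the 3 sums. The ratio of the group means was 2.07 for T cell genes, 4.60 for NK genes and 1.70 for B cell genes, and these sums carry no test. A few genes carried much of the sums. In CLP lung Gzma and Gzmb averaged 21.55 and 21.73 CPM, of 79.0 CPM for the 10 NK genes. The ratio over the 3 NK receptor genes was 2.69. Il7r, Tcf7, Lef1 and Ccr7 summed to 100.8 CPM, of 175.0 CPM for the 19 T cell genes.

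The cytotoxic effectors are the granule proteases granzyme A (Gzma) and granzyme B (Gzmb), the pore-forming protein perforin (Prf1), the granule membrane protein Nkg7 and the chemokine Xcl1. Gzmb (ENSMUSG00000015437) had 26.8, 17.2 and 21.2 CPM in CLP lung, against 2.11, 1.05 and 1.27 CPM in sham lung. Every CLP library was thus far above every sham library, and the log2 fold change was 3.88 ± 0.27 (standard error, adjusted p = 5.87e-05), the largest among the 35 genes. Gzma (ENSMUSG00000023132) had 22.7, 19.9 and 22.0 CPM in CLP lung, against 7.56, 4.12 and 3.36 CPM in sham lung, a log2 fold change of 2.11 ± 0.26 (adjusted p = 0.00056). Its groups were separate as well, with sham replicate 1 the highest of the sham libraries. Per kilobase of exon, Gzma stood at 21.4 CPM and Gzmb at 15.1 CPM in CLP lung, against 4.98 and 1.03 CPM in sham lung.

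The windows around the transcription starts of these granzyme genes are printed because their fold changes in lung were unlike in value. They come from RefSeq on build GRCm38.p6, 250 bases before to 50 after the start, Gzmb at chr14:56262285-56262584 and Gzma at chr13:113100932-113101231, both on the minus strand. Capitals mark every match, on either strand, to the letters AGGAAG (Ets), TGTGGT (Runx), TTCNNNGAA (GAS), TTTC, any 2 bases, TTTC (ISRE) or AGGTGT (T-box).
Gzmb: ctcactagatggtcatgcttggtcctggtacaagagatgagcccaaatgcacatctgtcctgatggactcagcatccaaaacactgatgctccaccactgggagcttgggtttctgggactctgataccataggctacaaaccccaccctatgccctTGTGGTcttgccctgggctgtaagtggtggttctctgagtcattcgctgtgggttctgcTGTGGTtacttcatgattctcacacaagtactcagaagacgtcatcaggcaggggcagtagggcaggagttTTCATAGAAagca
Gzma: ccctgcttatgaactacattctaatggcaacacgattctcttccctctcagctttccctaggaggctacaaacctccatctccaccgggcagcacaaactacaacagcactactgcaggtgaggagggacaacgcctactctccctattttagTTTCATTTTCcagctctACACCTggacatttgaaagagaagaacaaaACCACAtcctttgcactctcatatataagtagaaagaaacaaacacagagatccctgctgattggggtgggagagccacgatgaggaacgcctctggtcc
The Gzmb window held 2 Runx matches and 1 GAS match, and the Gzma window 1 Runx, 1 ISRE and 1 T-box match, with no overlap between them. Of 32851 windows of the same length, 16.8% held the Runx letters, 8.3% GAS, 3.44% ISRE, 13.7% T-box and 35.4% Ets. A match describes the letters only and is no sign of a bound factor. RefSeq windows were at hand for 26 of the 36 genes, 34 windows in all, of which 13 held Runx, 4 GAS, 3 ISRE, 11 T-box and 17 Ets letters.

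Within each library the ratio of Gzmb to Gzma counts, which no scaling affects, was 0.24, -0.21 and -0.05 on the log2 scale in CLP lung, against -1.82, -1.94 and -1.38 in sham lung. The groups did not overlap, with a mean of -0.01 ± 0.23 in CLP lung and -1.71 ± 0.29 in sham lung (SD, n = 3 each), and a difference of 1.70. The exact two-sided permutation test gave p = 0.1, which is the smallest p that 3 against 3 libraries allow. Set against Prf1, the log2 ratio of Gzmb was 1.06, 0.63 and 1.07 in CLP lung, against -0.58, 0.47 and -0.85 in sham lung, without overlap, a difference of 1.24 (exact permutation p = 0.1). These are 2 of 6 ratios computed, each adjusted p was 0.2 after Benjamini-Hochberg correction of the exact permutation p over the 6, and no ratio could pass a threshold of 0.05 with 3 libraries a group.

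Perforin transcripts were at 12.8, 11.1 and 10.1 CPM in CLP lung, against 3.17, 0.749 and 2.32 CPM in sham lung, a log2 fold change of 2.46 ± 0.38 for Prf1 (adjusted p = 0.00153). Nkg7 had 5.37, 6.64 and 5.37 CPM in CLP lung, against 3.09, 1.20 and 1.79 CPM in sham lung (1.52 ± 0.31, adjusted p = 0.00455). Neither gene's groups overlapped, and sham replicate 1 held the highest level of both among the sham libraries. Xcl1, a chemokine that draws cross-presenting dendritic cells, was too scarce to test, with 14, 15 and 5 counts in CLP lung against 3, 0 and 0 in sham lung. Summed over libraries that is 34 against 3 counts, a ratio of 11.4 per total count (3.57 to 57.8, exact 95% interval for counting error only).

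Among the receptors of NK cells, Klrk1 encodes the activating receptor NKG2D, Klrb1c the antigen NK1.1 and Ncr1 the activating receptor NKp46. Klrk1 had 8.48, 6.96 and 7.83 CPM in CLP lung, against 3.25, 1.65 and 2.24 CPM in sham lung (log2 fold change 1.71 ± 0.25, adjusted p = 0.000892). Klrb1c had 4.51, 5.02 and 5.01 CPM in CLP lung, against 2.11, 1.72 and 1.57 CPM in sham lung (1.43 ± 0.20, adjusted p = 0.000802). The groups did not overlap for either gene, although exons of Klrb1c share 413 bases with another gene on its strand in an older annotation. Ncr1, the receptor most particular to NK cells, had 1.56, 1.54 and 2.28 CPM in CLP lung, against 1.95, 0.524 and 1.05 CPM in sham lung. These groups overlapped, because sham replicate 1 lay above CLP replicates 1 and 2, and the log2 fold change was 0.61 ± 0.44 (adjusted p = 0.279).

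The T-box factors Tbx21 and Eomes direct the cytotoxic programme of NK cells and CD8 T cells. Tbx21 had 2.18, 2.27 and 1.91 CPM in CLP lung, against 0.813, 0.299 and 0.448 CPM in sham lung (2.03 ± 0.35, adjusted p = 0.00216). Eomes was at 0.778, 1.29 and 1.27 CPM in CLP lung, against 0.813, 0.674 and 0.373 CPM in sham lung (0.84 ± 0.39, adjusted p = 0.106). Tbx21 thus rose with separated groups, while CLP replicate 1 lay within the sham range for Eomes, which had only 5 to 16 counts per library.

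T cell genes were described in the order of the receptor complex, the co-receptors, the signalling proteins, co-stimulation, and survival and homing. Of the 4 invariant chains that assemble with the T cell receptor, Cd3d (ENSMUSG00000032094) had 5.37, 3.48 and 4.55 CPM in CLP lung, against 1.06, 1.27 and 1.20 CPM in sham lung. Cd3e had 4.67, 3.399 and 3.55 CPM in CLP lung, against 2.28, 1.57 and 2.02 CPM in sham lung. Cd247, the zeta chain, had 9.72, 5.99 and 7.83 CPM in CLP lung, against 2.28, 1.95 and 3.29 CPM in sham lung. All 3 rose with separated groups, with log2 fold changes of 1.92 ± 0.25 for Cd3d (adjusted p = 0.00055), 0.99 ± 0.24 for Cd3e (adjusted p = 0.00893) and 1.64 ± 0.26 for Cd247 (adjusted p = 0.00144).

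Cd3g (ENSMUSG00000002033), the fourth chain, had 3.19, 2.59 and 2.91 CPM in CLP lung, against 2.36, 1.80 and 2.54 CPM in sham lung. Its CLP libraries were all above its sham libraries, but by little, and the log2 fold change of 0.38 ± 0.22 did not pass (adjusted p = 0.196, 0.140 to 0.478 over 13 alternatives). Whether the chains differed in response was not tested, and for Cd247 a further limit is that 3007 of its 5329 exon bases overlap the gene Pou2f1 on the opposite strand. Cd3d and Cd3g are neighbours on chromosome 9 that are read in opposite directions, and their start windows are shown because these partners in 1 complex had unlike fold changes. Cd3d lies at chr9:44981536-44981835 on the plus strand and Cd3g at chr9:44980382-44980681 on the minus strand (RefSeq, GRCm38.p6), with 854 bases between the windows.
Cd3d: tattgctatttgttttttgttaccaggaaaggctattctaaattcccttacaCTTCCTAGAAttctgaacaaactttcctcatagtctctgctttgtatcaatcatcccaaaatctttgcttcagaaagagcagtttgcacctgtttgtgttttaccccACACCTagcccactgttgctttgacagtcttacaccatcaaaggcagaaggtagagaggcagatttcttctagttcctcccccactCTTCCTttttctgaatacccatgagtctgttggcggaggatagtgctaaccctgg
Cd3g: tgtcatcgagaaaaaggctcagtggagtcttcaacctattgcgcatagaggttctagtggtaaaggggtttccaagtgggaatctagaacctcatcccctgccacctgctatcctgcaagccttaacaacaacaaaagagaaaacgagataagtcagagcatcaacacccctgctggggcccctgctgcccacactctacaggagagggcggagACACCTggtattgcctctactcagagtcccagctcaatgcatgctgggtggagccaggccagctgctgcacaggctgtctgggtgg
With the same 5 motifs in capitals, the Cd3d window held 2 Ets matches, 1 GAS and 1 T-box match, and an Ets match overlaps the GAS match. The Cd3g window held 1 T-box match.

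The co-receptor genes had unlike fold changes. Cd8a (ENSMUSG00000053977) had 3.97, 5.02 and 5.10 CPM in CLP lung, against 1.46, 1.27 and 2.02 CPM in sham lung (1.56 ± 0.24, adjusted p = 0.00122). Its partner chain Cd8b1 had 2.88, 2.59 and 1.91 CPM in CLP lung, against 1.38, 0.749 and 1.42 CPM in sham lung (1.06 ± 0.31, adjusted p = 0.0215), and this call was lost without CLP replicate 1 or without sham replicate 2 (adjusted p = 0.0761 and 0.0740). Cd4 (ENSMUSG00000023274) had 4.04, 2.67 and 3.46 CPM in CLP lung, against 3.17, 2.10 and 3.21 CPM in sham lung, with overlapping groups (0.27 ± 0.25, adjusted p = 0.417). The log2 ratio of Cd8a to Cd4 counts within a library was -0.03, 0.90 and 0.55 in CLP lung, against -1.09, -0.70 and -0.66 in sham lung. The groups of this ratio did not overlap, and their difference of 1.30 had an exact permutation p = 0.1 (adjusted over the 6 ratios, 0.2).

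**Figure D2:**
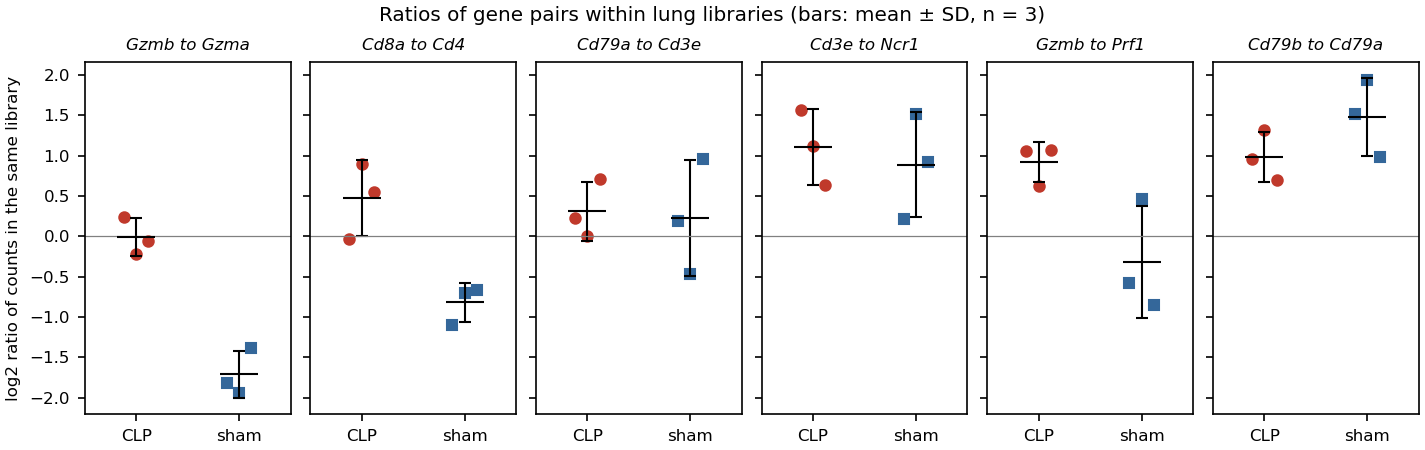
Log2 ratios of the counts of 6 pairs of genes within each lung library (points, with 0.5 added to both counts), with the mean and SD of CLP on the left and of sham on the right of each panel (n = 3). Gzmb to Gzma, Cd8a to Cd4 and Gzmb to Prf1 separate the groups, and the other 3 pairs overlap.

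The genes of the proximal signalling proteins all passed. The kinase gene Lck had 7.70, 8.09 and 6.65 CPM in CLP lung, against 4.72, 2.17 and 4.33 CPM in sham lung (1.00 ± 0.27, adjusted p = 0.0152). Zap70, the kinase that binds the phosphorylated CD3 chains, had 8.09, 5.99 and 6.01 CPM in CLP lung, against 3.82, 5.17 and 3.06 CPM in sham lung (0.74 ± 0.23, adjusted p = 0.0298). Lat, the adaptor that Zap70 phosphorylates, had 7.31, 5.18 and 6.83 CPM in CLP lung, against 3.50, 2.84 and 4.85 CPM in sham lung (0.78 ± 0.24, adjusted p = 0.0257). All 3 rose without overlap of the groups, but the calls of Zap70 and Lat were lost without CLP replicate 1 (adjusted p = 0.102 and 0.0830), without sham replicate 1 (0.0930 and 0.0856), and also without sham replicate 3 for Zap70 (0.0889) and without sham replicate 2 for Lat (0.0909).

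Both co-stimulatory receptor genes rose. Cd28, which delivers the classical second signal, had 8.71, 3.72 and 5.37 CPM in CLP lung, against 1.95, 1.05 and 1.05 CPM in sham lung (2.14 ± 0.39, adjusted p = 0.00277). Icos, its inducible relative, had 4.82, 2.91 and 2.73 CPM in CLP lung, against 1.30, 1.497 and 1.34 CPM in sham lung (1.34 ± 0.29, adjusted p = 0.00565). Both separated the groups, with CLP replicate 1 highest. Cd6, a scavenger-receptor family protein on T cells, had 2.64, 1.94 and 3.55 CPM in CLP lung, against 1.55, 0.973 and 1.64 CPM in sham lung (0.96 ± 0.31, adjusted p = 0.0346). Its call was lost under 8 of 13 alternatives, including each of 5 that leave out 1 library, namely CLP replicate 1 or 3 or any sham replicate (adjusted p = 0.0531 to 0.117). Its relative Cd5, an inhibitor of receptor signalling, had 1.63, 1.21 and 1.73 CPM in CLP lung, against 1.22, 0.674 and 1.05 CPM in sham lung (0.64 ± 0.31, adjusted p = 0.125), and its groups overlapped slightly at CLP replicate 2.

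The adhesion receptor Cd2 had 14.2, 7.37 and 9.29 CPM in CLP lung, against 10.7, 8.91 and 9.41 CPM in sham lung, a log2 fold change of 0.09 ± 0.23 (adjusted p = 0.777). The groups overlapped fully, and the sign turned to -0.02 with library totals, to -0.02 with upper-quartile scaling and to -0.22 without CLP replicate 1. Cd2 and Cd4 had the smallest fold changes among the T cell surface genes of the 36.

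The survival and homing receptor genes were among the T cell genes with the largest fold changes. Il7r (ENSMUSG00000003882), the receptor chain for the survival cytokine IL-7, had 46.4, 24.6 and 38.8 CPM in CLP lung, against 9.67, 7.26 and 8.06 CPM in sham lung (2.14 ± 0.24, adjusted p = 0.000415). Ccr7 (ENSMUSG00000037944), which guides naive T cells and mature dendritic cells to lymph nodes, had 24.7, 12.4 and 16.7 CPM in CLP lung, against 2.76, 3.52 and 5.23 CPM in sham lung (2.22 ± 0.32, adjusted p = 0.00109). In both, every CLP library exceeded the highest sham library more than 2-fold. Of the transcription factors of resting T cells, Tcf7 had 41.8, 32.5 and 37.6 CPM in CLP lung, against 26.7, 23.7 and 25.2 CPM in sham lung (0.56 ± 0.11, adjusted p = 0.00358), so it rose without overlap of the groups. Its relative Lef1 had 10.0, 7.45 and 9.47 CPM in CLP lung, against 7.24, 6.66 and 8.81 CPM in sham lung (0.25 ± 0.17, adjusted p = 0.277), with overlapping groups.

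**Figure D3:**
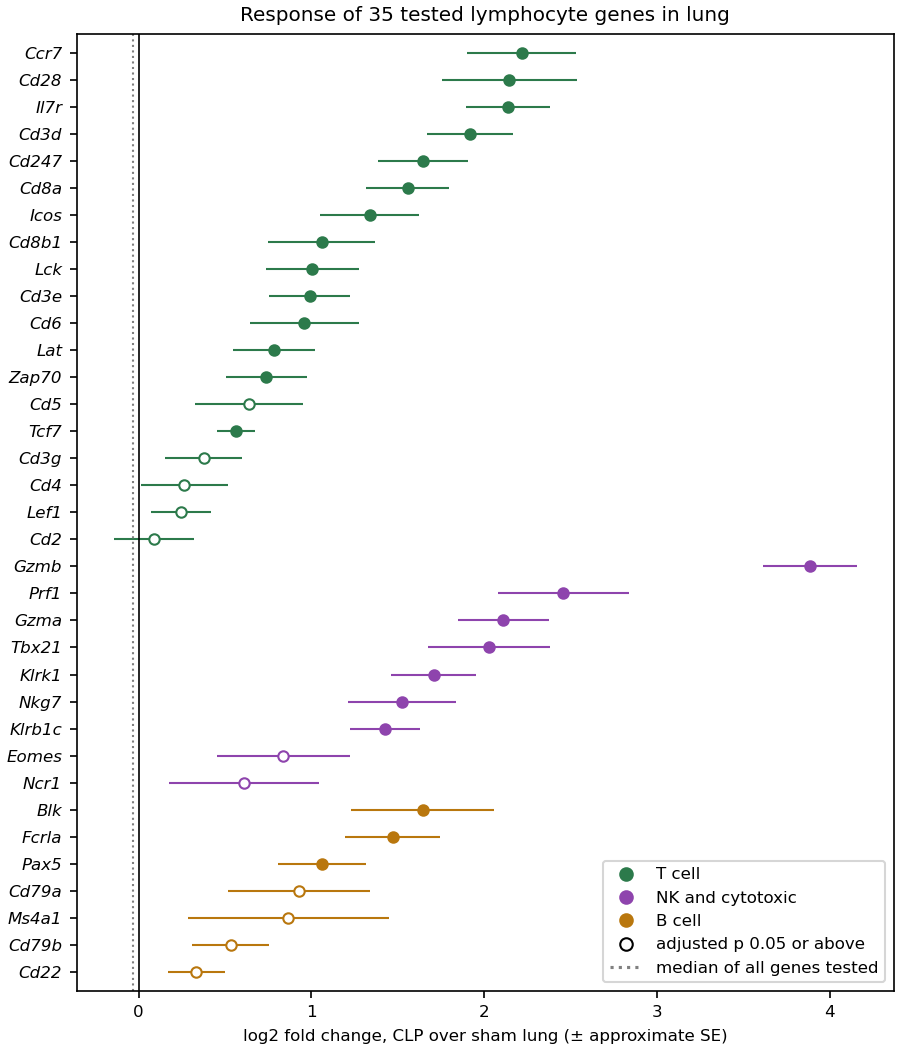
Log2 fold change of the 35 tested genes in lung, CLP over sham, with approximate standard errors, ordered within T, NK and B cell genes (filled points have an adjusted p below 0.05; the dotted line is the median of all genes tested). Values run from 0.09 for Cd2 to 3.88 for Gzmb, and all lie to the right of 0, although Cd2 turns negative under 2 other scalings.

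Of the B cell genes, 3 passed and 4 did not. Pax5, the factor that fixes B cell identity, had 6.46, 5.91 and 7.10 CPM in CLP lung, against 3.50, 1.95 and 3.88 CPM in sham lung (1.06 ± 0.25, adjusted p = 0.00922). Blk, a kinase of B cells that some gamma-delta T cells also use, had 6.14, 4.29 and 3.10 CPM in CLP lung, against 2.36, 0.749 and 1.27 CPM in sham lung (1.64 ± 0.41, adjusted p = 0.0118). Fcrla, an intracellular relative of Fc receptors, had 7.54, 4.61 and 5.10 CPM in CLP lung, against 2.03, 1.57 and 2.61 CPM in sham lung (1.47 ± 0.27, adjusted p = 0.00297). These 3 rose without overlap of the groups.

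The signalling chains of the B cell receptor did not pass. Cd79a had 5.44, 3.399 and 5.83 CPM in CLP lung, against 2.60, 1.12 and 3.96 CPM in sham lung (0.93 ± 0.41, adjusted p = 0.0975). Cd79b had 10.6, 8.50 and 9.47 CPM in CLP lung, against 7.48, 4.42 and 7.84 CPM in sham lung (0.53 ± 0.22, adjusted p = 0.0784). Only Cd79b separated the groups, since for Cd79a sham replicate 3 exceeded CLP replicate 2. The surface protein CD20, encoded by Ms4a1, had 5.68, 3.08 and 7.19 CPM in CLP lung, against 3.50, 0.674 and 4.55 CPM in sham lung (0.87 ± 0.58, adjusted p = 0.258). Cd22, an inhibitory co-receptor, had 13.7, 10.9 and 14.8 CPM in CLP lung, against 10.97, 8.61 and 11.7 CPM in sham lung (0.33 ± 0.17, adjusted p = 0.130).

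Sham replicate 2 held the fewest counts of all 7 B cell genes within sham lung, 9 of Ms4a1 and 15 of Cd79a, and the values without it are 0.21 to 1.32 on the log2 scale for these 7 genes, of which 3 rose. Cd79a passed without sham replicate 3 (adjusted p = 0.0329) and Cd22 without CLP replicate 2 (0.0365). The log2 ratio of Cd79a to Cd3e counts was 0.22, 0.00 and 0.71 in CLP lung, against 0.19, -0.47 and 0.96 in sham lung, a difference of 0.08 (exact permutation p = 0.9), with overlapping groups. The ratio of Cd3e to Ncr1 differed by 0.22 (p = 0.6, exact permutation) and that of Cd79b to Cd79a by -0.49 (p = 0.2, exact permutation), again with overlapping groups, and these data did not resolve a difference in any of the 3 ratios.

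Per kilobase of exon, the order of levels in sham lung was led by Tcf7 (9.60 CPM per kb), Cd2 (5.56), Gzma (4.98) and Cd79b (4.60), and Gzmb stood in place 14 with 1.03. In CLP lung Gzma (21.4 CPM per kb), Gzmb (15.1) and Tcf7 (14.2) led. Eomes was lowest in both groups, at 0.268 CPM per kb in CLP lung and 0.149 in sham lung. Exon lengths came from GENCODE M21 on an older build than the files use.

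Other genes of the same lineages were described from lists of pathways and markers. Among all genes tested in lung, 23.9% were called higher and 24.9% lower. Of 19 tested genes of the T cell receptor's constant regions and signalling, 13 rose and 2 fell in lung (median log2 fold change 1.23). They included the adaptors Fyb (2.97 ± 0.21) and Lcp2 (2.76 ± 0.23), the phosphatase Ptpn22 (2.38 ± 0.19) and the exchange factor Vav1 (2.24 ± 0.19), all of which myeloid cells also express, while the phospholipase Plcg1 fell by 0.77 ± 0.13. Of 21 tested genes of NK and cytotoxic cells outside the 36, 11 rose and 1 fell (median 1.09), among them the interleukin receptor chains Il18rap (3.12 ± 0.14) and Il2rb (1.98 ± 0.21) and the chemokine Ccl5 (1.98 ± 0.28). Of 23 tested genes of the B cell receptor pathway, 11 rose and 1 fell (median 0.96), among them Cd72 (2.35 ± 0.32), Syk (1.60 ± 0.16) and Cd37 (1.40 ± 0.12). In CLP lung Il18rap alone stood at 200.1 CPM, against a sum of 79.0 CPM for the 10 NK genes of the 36. Syk alone stood at 203.3 CPM there, against a sum of 49.6 CPM for the 7 B cell genes. Which cells carried these transcripts was not tested, so they cannot be read as lymphocyte signals. The antibody heavy chain gene Ighm did not pass (1.81 ± 0.82, adjusted p = 0.125), with 101.8 ± 99.9 CPM in CLP lung and 29.0 ± 12.7 CPM in sham lung (SD, n = 3 each).

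Of 20 tested lymphocyte activation genes, 16 rose and 0 fell (median 1.68, with 0 lower at an unadjusted p under 0.05, with DESeq2 and with limma-voom). Examples were the co-stimulatory receptor Tnfrsf9 (3.29 ± 0.32), the immediate early factor Nr4a1 (3.23 ± 0.41), Myc (2.85 ± 0.26), Cd86 (1.71 ± 0.15) and Cd44 (1.68 ± 0.17), none of which is restricted to lymphocytes. Of 20 tested homing and egress genes 14 rose and 2 fell (median 0.91), including the egress receptor S1pr1 (1.08 ± 0.10) and its regulator Klf2 (0.92 ± 0.30, adjusted p = 0.0371). Of 14 tested cytokines and chemokines that act on T and NK cells, 7 rose and 3 fell (median 0.48), with Cxcl10 at 5.16 ± 0.50.

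Markers of other lymphoid cells were mixed in lung. Among 7 tested genes of group 2 innate lymphoid cells 1 rose and 1 fell (Calca 2.21 ± 0.31, Gata3 -2.05 ± 0.25), and among 6 of gamma-delta and IL-17 lymphocytes 2 rose and 2 fell, with the receptor constant gene Trdc at 2.11 ± 0.46. Of 5 tested genes of regulatory T cells 4 rose, and Ikzf2 fell by 0.64 ± 0.20. Ctla4 (3.62 ± 0.49) and Il2ra (1.68 ± 0.30) were among those that rose, and both are also on the activation list. Ctla4 had 0.387 CPM in sham lung, against 4.84 CPM in CLP lung, and entered the test through CLP lung. The defining marker Foxp3 was too scarce to test, so the share that rose is no measure of regulatory T cells. Of 5 tested plasma cell genes 1 rose, Xbp1 (0.91 ± 0.12). It stood at 372.7 CPM in CLP lung, against 9.93 CPM for Jchain, which did not pass (edgeR adjusted p = 0.204). Which cells carried Xbp1 was not tested.

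Tissue of thymus or lymph node was looked for by its own markers. Of 10 thymic genes 1 had enough counts, Ccl25, and it did not pass (-0.27 ± 0.19, adjusted p = 0.274). The summed level of the 10 was 5.28 to 7.62 CPM in CLP lung, against 6.05 to 7.19 CPM in sham lung, and Rag2 had 0 counts in all 6 libraries. Rag1 had 13, 0 and 1 counts in CLP lung, against 1, 0 and 0 in sham lung, so nearly all of it lay in CLP replicate 1. Of 3 tested genes of lymph node stroma 1 rose and 1 fell, Cxcl13 (2.41 ± 0.31) and Ccl21a (-0.48 ± 0.14), and the 7 matched genes summed to 36.9 to 39.4 CPM in CLP lung, against 27.2 to 31.8 CPM in sham lung. The venule product Glycam1 had 0 counts throughout, and Madcam1 had 2 counts in CLP replicate 1 and 0 elsewhere.

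Markers of myeloid cells also rose in lung. The 10 neutrophil genes all rose (median 2.34) and summed to 9106 to 13910 CPM in CLP lung, against 1184 to 1334 CPM in sham lung. The 10 monocyte genes all rose as well (median 3.16) and summed to 2102 to 2868 CPM in CLP lung, against 967 to 1189 CPM in sham lung. Of 12 tested genes of mature and migratory dendritic cells, a list that shares Ccr7, 5 rose and 4 fell (median -0.28), with summed levels of 292 to 349 CPM in CLP lung and 232 to 249 CPM in sham lung. Socs2 alone made up most of that sum, with 211 ± 29.3 CPM in CLP lung and 130.4 ± 7.45 CPM in sham lung (SD, n = 3 each). Of 9 tested platelet and erythroid genes 3 rose and 4 fell (median -0.64), and the sum was 865 to 1040 CPM in CLP lung, against 1157 to 1831 CPM in sham lung. Of 7 lung and liver markers 1 fell, Ager of alveolar type 1 cells (-0.52 ± 0.14). The part of these shifts in the lymphocyte values was not tested.

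**Figure D4:**
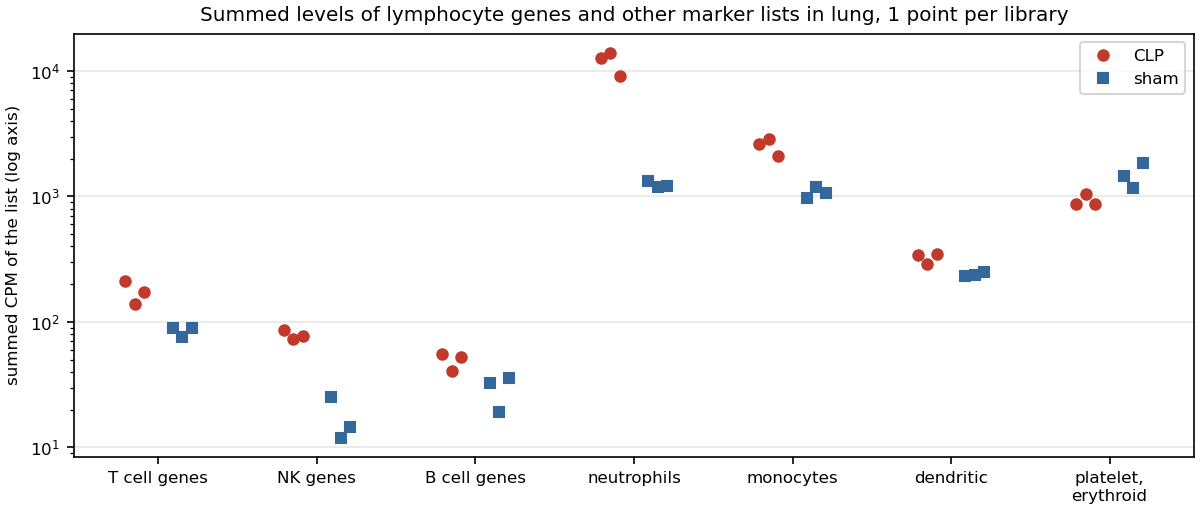
Summed CPM (log axis) of the T, NK and B cell genes and of 4 marker lists of other blood cells in lung, with 1 point per library and CLP on the left of sham for each list. The sums lie higher in CLP lung than in sham lung for the 3 lymphocyte classes and for neutrophil, monocyte and dendritic genes (the last mostly Socs2), and lower for platelet and erythroid genes.

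In liver only 7 of the 36 genes had enough counts to be tested, and 2 rose while 1 fell. The filter asks for enough counts only in as many libraries as 1 group holds. Gzmb had 4, 3 and 8 counts in sham liver, against 28, 37 and 18 in CLP liver. Cd4 had 7, 5 and 4 counts in CLP liver, against 11, 14 and 19 in sham liver. Such genes entered through their higher group alone, so the calls among the 7 do not measure how often these genes respond. Over all 12392 genes tested in liver, 21.4% were called higher, 21.0% lower and 42.3% in either direction. Gzmb had 2.15, 2.97 and 1.85 CPM in CLP liver, against 0.291, 0.222 and 0.479 CPM in sham liver (2.75 ± 0.38, adjusted p = 0.000798). Il7r had 2.31, 1.76 and 1.13 CPM in CLP liver, against 0.145, 0.815 and 0.359 CPM in sham liver (2.00 ± 0.52, adjusted p = 0.0150). Both separated the groups, but the call of Il7r was lost without CLP replicate 1 or without sham replicate 3 (adjusted p = 0.0534 and 0.0573). Both rises exceeded 1 on the log2 scale, as did 8.88% of all genes, and that of Gzmb also exceeded 2, as did 3.66%.

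Cd4 had 0.538, 0.401 and 0.411 CPM in CLP liver, against 0.800, 1.04 and 1.14 CPM in sham liver, or 16 against 44 counts in all. It fell by 1.12 ± 0.36 on the log2 scale (adjusted p = 0.0347), but the call was lost under 8 of 13 alternatives, with DESeq2 (adjusted p = 0.129), without the low-count filter (0.105), with a replicate block (0.0728) and without each of CLP replicates 1, 2 and 3 and sham replicates 2 and 3 (0.0660 to 0.120). Cd28 had 9.85, 8.67 and 15.3 CPM in CLP liver, against 3.42, 7.86 and 1.26 CPM in sham liver (1.45 ± 0.58, adjusted p = 0.0869). Its groups did not overlap, and it passed without sham replicate 2 (2.29, adjusted p = 0.0105), with DESeq2 and with limma-voom (0.0131 and 0.0416). In 3 of the 7 genes every CLP liver library lay above every sham liver library, as in 28.1% of all genes, and in 1 below, as in 27.6%.

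Cd28 took the most counts of the T cell genes in liver. It had 128, 108 and 149 counts in CLP liver, against 47, 106 and 21 in sham liver, while Cd3e had 3, 5 and 4 counts in CLP liver, against 3, 7 and 5 in sham liver. Per kilobase of exon that is 1.84 CPM for Cd28 and 0.0852 for Cd3e in CLP liver, against 0.682 and 0.0847 in sham liver. Zap70 and Tcf7 stood near Cd28 rather than Cd3e, at 0.805 and 0.908 CPM per kb in CLP liver, against 1.08 and 0.921 in sham liver. In lung Cd28 and Cd3e stood at 0.969 and 0.949 CPM per kb after CLP and at 0.220 and 0.479 after sham surgery. The other 3 tested genes did not pass in liver: Zap70 (-0.44 ± 0.36, adjusted p = 0.353), Tcf7 (-0.01 ± 0.31, adjusted p = 0.980) and Cd22 (0.43 ± 0.41, adjusted p = 0.420).

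**Figure D5:**
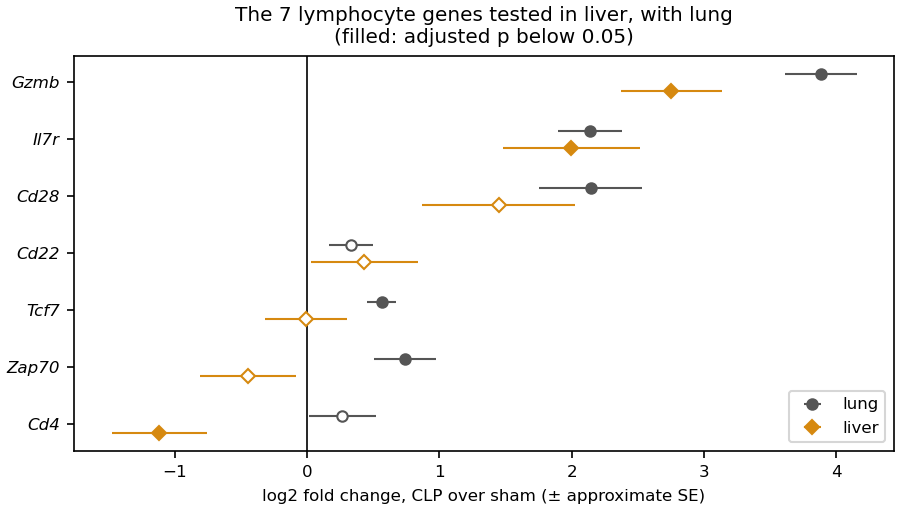
Log2 fold change with approximate standard errors of the 7 genes tested in liver (diamonds) beside the same genes in lung (circles), CLP over sham, filled where the adjusted p is below 0.05. Gzmb and Il7r lie right of 0 in both organs, and Cd4 lies at -1.12 in liver and at 0.27 in lung.

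The 29 genes not tested in liver had 0 to 19 counts per library, 369 in CLP liver and 220 in sham liver in all. Ratios per total count whose exact 95% interval (counting error only) lay above 1 included Ccr7 with 30 against 3 counts (10.9, 3.4 to 56.0), Prf1 with 27 against 4 (7.38, 2.57 to 29.0), Gzma with 31 against 8 (4.24, 1.91 to 10.7), Klrb1c with 22 against 6 (4.01, 1.58 to 12.1), Cd8a with 18 against 5 (3.94, 1.41 to 13.6) and Lck with 25 against 13 (2.10, 1.04 to 4.48). The one with its interval below 1 was Icos, with 2, 2 and 2 counts in CLP liver against 13, 10 and 4 in sham liver (0.243, 0.0821 to 0.601). The receptor chains Cd3d and Cd3e had 7 against 6 and 12 against 15 counts, and no difference was detectable at this depth.

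CLP liver libraries also held more of the lung markers, all 4 of which rose there, beside 21.4% of all genes tested in liver. Sftpb, with 10, 0 and 2 counts in sham liver, entered the test through CLP liver (28, 28 and 51 counts), so the count of 4 measures no frequency. The surfactant gene Sftpc was at 7.46 ± 2.48 CPM in CLP liver and 1.02 ± 0.763 CPM in sham liver (SD, n = 3 each), beside 11130 ± 773 CPM in CLP lung. Gzmb stood at 2.32 CPM in CLP liver and 21.7 CPM in CLP lung. Myeloid markers rose in liver too: 9 of 9 tested neutrophil genes were higher, and 7 of 10 monocyte genes were higher and 1 lower. Lcn2 alone stood at 6389 CPM in CLP liver and 1729 CPM in sham liver, of neutrophil sums of 6583 and 1748 CPM. Which cells carried it was not tested. Ly6g was too scarce to test, with 3, 5 and 2 counts in CLP liver against 0, 1 and 3 in sham liver. The part of the lung and myeloid markers in the lymphocyte values was not tested.

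Among related genes in liver, 5 of 9 tested genes of T cell receptor signalling rose and 1 fell, 6 of 7 of other NK and cytotoxic genes rose and 0 fell, and 7 of 8 activation genes rose and 0 fell (0 fell in either list at an unadjusted p under 0.05 and with DESeq2 or limma-voom). Examples were Ccl5 (5.07 ± 0.37), Il18rap (4.04 ± 0.31) and Cd44 (2.19 ± 0.13). Among all genes tested in liver, 21.4% were called higher and 21.0% lower. The filter left 18 of 25 other NK and cytotoxic genes and 12 of 20 activation genes untested. Ccl5 and Il18rap, with 14 and 18 counts in all of sham liver, entered through CLP liver (377 and 242 counts). The share that rose among the tested genes is therefore no measure of an NK or activation response. Of 14 tested homing genes 4 rose and 2 fell, among them S1pr5 (-3.47 ± 0.35), and 6 of 20 went untested. In the B cell receptor pathway 10 of 24 matched genes were tested. Of these 1 rose and 1 fell, Syk (2.06 ± 0.16) and Bank1 (-1.97 ± 0.37). S1pr5 had 3, 6 and 3 counts in CLP liver, against 48, 45 and 79 in sham liver. Bank1 had 4, 3 and 4 counts in CLP liver, against 18, 19 and 18 in sham liver. Both entered through sham liver, so these calls do not measure how often such genes fall.

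The response in lung was set against that in liver in 1 model of all 12 libraries. The labels do not say whether lung and liver libraries with the same number share a mouse, and the model treats them as independent. Of 35 genes tested, 2 differed, both with a higher value in lung, and 0 with a lower one (1 at an unadjusted p under 0.05, 0 with DESeq2 and 1 with limma-voom), beside 8.89% of all 16111 genes higher, 8.84% lower and 17.7% in either direction. For Icos the log2 fold change in lung exceeded that in liver by 3.14 ± 0.70 (adjusted p = 0.00780), and it passed under all 18 alternatives run, with the liver side resting on 6 and 27 counts. For Cd4 it was 1.36 ± 0.44 (adjusted p = 0.0488), and 14 of 18 alternatives lost it. For Gzmb (1.08 ± 0.56, adjusted p = 0.212) and Il7r (0.09 ± 0.70, adjusted p = 0.982) no difference between the organs was resolved. Only 7 of the 35 genes had enough counts to be tested in liver, so the share that differed is no measure of how often these genes differ.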

How the data were processed

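RNA was extracted as total RNA from lung and liver tissue kept in RNAlater, and stranded libraries were made with a TruSeq kit and sequenced on a NextSeq500, per the labels' protocols. The authors deposited whole-number counts per gene for 12 libraries (3 per group, 55414 genes, of which 52081 have a symbol). The submitters' processing notes name FastQC, STAR 2.7.10a, featureCounts, DESeq2 and the build mm39, with no role stated. The strand setting of the counting is not given in the sources used here. Reads of overlapping antisense genes may therefore mix, which touches Cd247, Cd3e, Lef1, Xcl1, Eomes, Cd22 and Pax5.

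The deposited counts were tested with edgeR 4.0.16 (R 4.3.3) within each organ: filterByExpr by group (minimum count 10, minimum total 15), TMM scaling, a robust quasi-likelihood fit and Benjamini-Hochberg adjustment over all genes tested. The threshold was 0.05. Standard errors were approximated as the log2 fold change over the root of F. The difference between organs was an interaction term over all 12 libraries. Ratios used counts plus 0.5. On simulated data with 200 changed genes, log2 fold changes of 1 and 2 were recovered for 81% and 99% of genes in the lung step (15067 genes), 70% and 97% in the liver step (12086 genes) and 42% and 79% in the interaction step (15772 genes), with 9.09%, 6.7% and 6.2% of calls false. The changed genes were drawn only from those above a floor of mean counts. These shares thus do not cover scarcer genes such as Eomes in lung and Cd4 in liver. Far fewer genes were changed than the 7548 called in lung.

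The 36 genes and the 17 other lists were chosen with earlier results of these data known. All 36 are described; of each other list at most the 3 tested genes with the lowest p and the 2 with the highest mean level in the organ were named, and defining markers of other cell types at or near 0 with their counts. The symbols Faim3 and Fdcsp were not matched. Alternatives were DESeq2 1.42.0, limma-voom (limma 3.58.1), library totals, upper-quartile scaling, no low-count filter, a replicate block, 1 model of all libraries and leaving out each library. Exon lengths and overlaps came from GENCODE M21, an older build than that of the files, so no gene coordinates are given beyond RefSeq start windows. Replicates of a group differed by more than sampling noise (chi-square per degree of freedom 5.28 to 37.6), so none was counted as a repeat of another. Some genes of the other lists are not reported here.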

Additional observations from a re-analysis of the deposited data

Results flagged for a closer look

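The change after CLP differed between the organs for 2 of the 35 lymphocyte genes by the test of the interaction in edgeR, as lung minus liver on the log2 scale. That is 5.71% of the 35, both higher in lung. Of all 16111 genes tested, 8.89% were called higher, 8.84% lower and 17.7% in either direction. Only 7 of the 35 had enough counts to be tested in liver. Standard errors of the difference ran from 0.30 for Tcf7 to 1.78 for Blk. Scarce liver counts thus limited the calls, and the share of 5.71% cannot show whether the lymphocyte genes stood out. For Icos the difference was 3.14 ± 0.70 (adjusted p = 0.00780), with 4.82, 2.91 and 2.73 CPM in CLP lung, against 1.30, 1.497 and 1.34 CPM in sham lung, and with 2, 2 and 2 counts in CLP liver, against 13, 10 and 4 counts in sham liver. It passed under all 18 alternatives, with adjusted p from 0.00172 to 0.0224. For Cd4 the difference was 1.36 ± 0.44 (adjusted p = 0.0488), and 14 of 18 alternatives lost it, with adjusted p from 0.0329 to 0.120. No cause was tested for either gene.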

How the results depend on the processing

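Between 20 and 27 of the 35 genes rose in lung under the alternatives run, and 0 fell under any of them; the low end was reached without CLP replicate 1. In lung, calls were lost for Cd6 (8 of 13 alternatives), Zap70 (5), Lat (3) and Cd8b1 (2). The sign of Cd2 turned to -0.0185 with library totals, to -0.0242 with upper-quartile scaling, and ranged from -0.22 to 0.32 when 1 library was left out. In liver, where 2 genes rose, 7 did so without the low-count filter, 10 in 1 model of all 12 libraries, and 1 to 4 when 1 library was left out (1 without CLP replicate 1, 4 without sham replicate 2). The 1 gene that fell in liver became 0 with DESeq2, 2 in the model of all libraries, and 0 to 1 when 1 library was left out. Tcf7 in liver turned to 0.0464 with limma-voom and ranged from -0.22 to 0.29 when 1 library was left out. For the difference between organs, 1 to 3 genes were higher when 1 library was left out, and limma-voom called 1 lower. Scaling by library totals called 1689 liver genes higher (2647 with TMM) and moved the median of all liver genes by -0.20 and of the interaction by 0.11. It left 30.8% of liver calls higher (50.4% with TMM) and 65.9% of interaction calls (50.1%), and upper-quartile scaling left 40.3% of liver calls. Ratios with 1 library left out ranged from 1.58 to 1.87 for Gzmb to Gzma, 1.08 to 1.55 for Cd8a to Cd4 and 0.97 to 1.63 for Gzmb to Prf1. The cause of these shifts was not tested. Low counts left 29 of the 36 genes untested in liver.

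With the replicate number as a block, 27 genes rose in lung, including 6 of the B cell genes (3 without it), 0 fell in liver, Tcf7 in liver was 0.0053, and 1 gene differed between organs. The numbers were not taken to pair the libraries: same-numbered CLP and sham libraries had correlated deviations of 0.0204, 0.0685 and -0.0259 in lung and 0.0343, 0.151 and 0.202 in liver. In liver 5 of 6 libraries correlated best with their own number, all but sham replicate 1 (0.0447 with CLP replicate 2), and in lung this was not so. Between the organs the values were 0.186, 0.0698 and 0.252 in CLP, where each of the 6 libraries correlated best with its own number, and -0.0249, 0.042 and 0.102 in sham, where this was not so. That is a hint from the data, not the design. With the block Icos still differed between organs (edgeR adjusted p = 0.00653) and Cd4 did not pass (0.0515).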
